A study of Homo sapiens with 12 samples.

Results

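The genes described here are those of RNA polymerase II and its general initiation factors in a pooled knockout screen of HER2-amplified cancer cells. They were taken by symbol from the gene column of the sgRNA count table: POLR2A to POLR2L, the GTF2A to GTF2H genes, the numbered TAF genes and TBP. This gave 47 genes with 282 sgRNAs, 6 for each gene, of 20915 genes and 123411 table entries in all. The entries include 2000 non-targeting control guides.

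RNA polymerase II copies protein-coding genes into messenger RNA, and it cannot find a promoter unaided. TFIID, built from the TATA-binding protein TBP and the TBP-associated factors (TAFs), recognises the promoter, TFIIA and TFIIB hold it there and bring in the polymerase, TFIIF and TFIIE join with it, and TFIIH opens the DNA. Nearly every dividing cell needs this machinery, so its genes are commonly used as examples of essential genes in knockout screens, while some TAFs have paralogs or serve in other complexes.

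The screen used the GeCKO v2 library, which delivers Cas9 and 1 guide per cell from a single lentivirus, as libraries A and B. N87 and OE19 are established HER2-amplified cell lines, which the study describes as gastric cancer lines. Cells of each line carried the library, were selected with puromycin and then kept for 14 days with lapatinib, an inhibitor of EGFR and HER2, or with DMSO as vehicle. Lapatinib was given at 0.5 uM to N87 cells and at 1 uM to OE19 cells. Baseline cells were taken after selection, before treatment. There were 2 replicates, from separate infections, of lapatinib, vehicle and baseline in each line, 12 libraries in all. The vehicle cells against the baseline cells show drug-free growth, and the lapatinib cells against the vehicle cells show the effect of the drug. The plasmid pool was not analysed here, so any loss of guides before baseline is outside these values.

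The 12 libraries held 13105805 to 33743599 counts, and the 282 sgRNAs took 0.140% to 0.228% of them. In N87, 55 and 25 of the 282 sgRNAs had fewer than 10 counts in the lapatinib libraries, against 2 and 8 in the vehicle libraries and 2 and 3 at baseline. In OE19 these numbers were 24 and 3 with lapatinib, 3 and 5 with vehicle, and 2 and 2 at baseline. At baseline the median normalized count of the 282 sgRNAs was 129 in N87 and 147 in OE19, against 146 and 147 for all entries. A lower count stands for fewer cells with that guide. Fewer surviving cells and slower growth cannot be told apart here, and editing at the target sites was not measured.

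During drug-free growth 13 of these genes fell in N87 and 6 in OE19. With edgeR's quasi-likelihood test on each sgRNA and rank aggregation over the sgRNAs of a gene, 13 of the 47 genes were lower in N87 vehicle cells than at baseline at an adjusted p of 0.05, where 2.34% of the 20894 genes tested were lower. In OE19, 6 of the 47 were lower, where 1.53% of all genes were. No member was higher in either line, where 0.0574% of all genes were higher in N87 and 0% in OE19. Without N87 vehicle replicate 1, 1 member, TAF15, was higher in N87 at a median of 0.41 (adjusted p 0.038), where 25 genes in all were higher, against 12 with all libraries. At an unadjusted p of 0.05, 29 members were lower in N87 (7.07% of all genes) and 25 in OE19 (6.99%), and 3 members were higher in N87 (5.11%) and 1 in OE19 (4.99%).

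The sizes were moderate. The value given for a gene is the median log2 fold change over its sgRNAs, with the SD over them. Across the 47 genes the median of this value was -0.26 in N87, with a range of -1.11 to 0.20, against 0.02 over all genes. In OE19 it was -0.27, with a range of -0.89 to 0.18, against 0.01 over all genes. The value was negative for 43 members in N87 and 37 in OE19, where 42.7% and 46.4% of all genes were negative. With factors from the control guides, which moved the median of all genes to -0.07 and -0.17, it was negative for 44 and 47. It lay below the 10th percentile of all genes for 29 members in N87, where that percentile was -0.21, and for 22 in OE19, where it was -0.28. Each vehicle library was also set against the mean of the baseline libraries of its line, on normalized counts. The 47 genes then had medians of -0.22 and -0.36 (N87) and of -0.33 and -0.23 (OE19). With both vehicle libraries 39 members in N87 and 36 in OE19 were negative. These values share the baseline mean, so they are not independent replicate ratios.

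**Figure D1:**
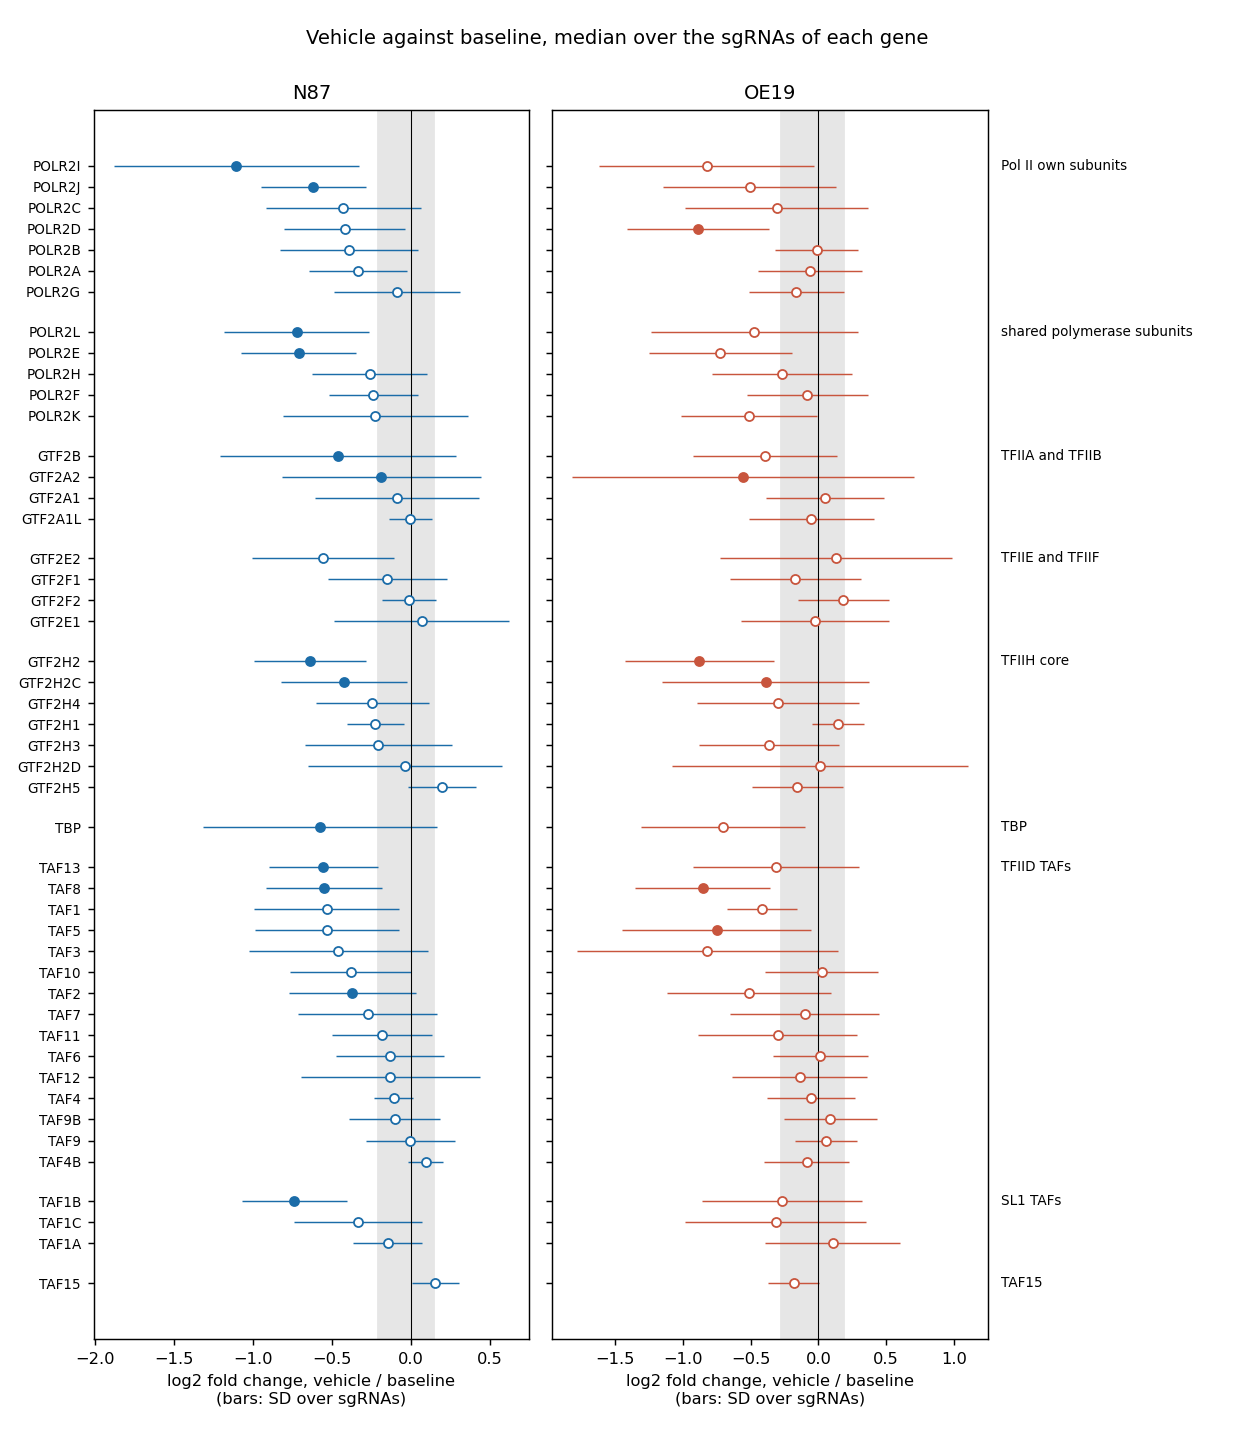
Median log2 fold change of vehicle over baseline for each of the 47 genes in N87 and OE19, grouped by role, with bars for the SD over sgRNAs, filled points for genes past an adjusted p of 0.05 and a grey band from the 10th to the 90th percentile of all genes. The 13 filled points in N87 and the 6 in OE19 all lie below 0, and GTF2A2 in N87 is the filled point nearest to 0, at -0.19.

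Single sgRNAs showed the same loss without a model. Of the 282 sgRNAs, 136 (48.2%) in N87 had both vehicle libraries below both baseline libraries, where 17.9% of all entries did, and 28 (9.93%) had both above, where 18.9% of all entries did. In OE19, 133 (47.2%) had both vehicle libraries below, where 21.9% of all entries did, and 37 (13.1%) had both above, where 22.5% did. Olfactory receptor genes, which serve the sense of smell, had 10.4% of their sgRNAs below in N87 and 15.1% in OE19. The control guides had 5.05% below in N87 and 3.3% in OE19. Past the edgeR test for single sgRNAs, 24 of the 280 member sgRNAs tested were lower in OE19 (0.893% of all sgRNAs) and 1 in N87 (0.0399%), and 0 were higher in either line (0.0114% in OE19 and 0% in N87, so that 0.904% changed in OE19 in one direction or the other). The 24 belonged to 19 genes.

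**Figure D2:**
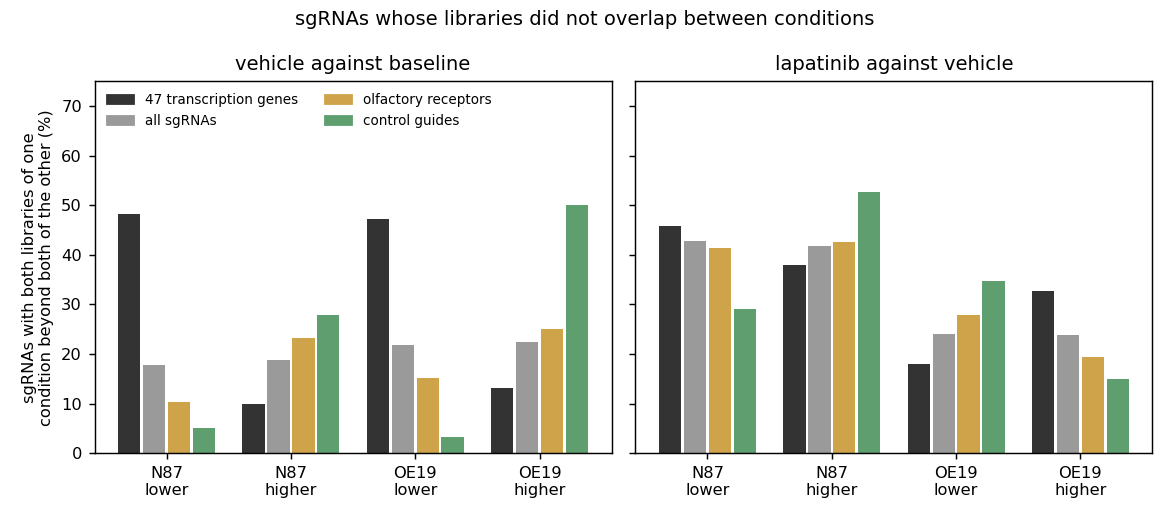
Percent of sgRNAs whose 2 libraries of the first condition both lay below ("lower") or both above ("higher") the 2 libraries of the second, for the 47 genes, all entries, olfactory receptor genes and control guides, in vehicle against baseline (left) and lapatinib against vehicle (right). For drug-free growth the bars of the 47 genes stand at 48.2% lower in N87 and 47.2% in OE19, and with lapatinib they stand at 32.6% higher in OE19.

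The 7 subunits that belong to polymerase II alone were all negative in both lines, with a median of -0.42 in N87 and -0.31 in OE19. POLR2I, a small zinc-binding subunit that aids proofreading, had the lowest median of all members in N87. Its 6 sgRNAs summed to 318 and 278 normalized counts in the N87 vehicle libraries, against 489 and 410 at baseline, and the 2 conditions did not overlap. Its median was -1.11 ± 0.78 (SD, 6 sgRNAs), with an adjusted p of 0.0093. Both vehicle libraries lay below both baseline libraries for 5 of its 6 sgRNAs, where 17.9% of all entries did. Such counts rest on the same libraries as the gene test, so they are not separate evidence. In OE19 the sums were 382 and 456 with vehicle, against 502 and 663 at baseline, also without overlap, and the median of -0.82 ± 0.79 missed the threshold with an adjusted p of 0.060. POLR2I lies at chr19:36604611-36606115 on the minus strand of GRCh37.

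POLR2J, which pairs with POLR2C to begin assembly of the enzyme, summed to 493 and 395 normalized counts in N87 vehicle cells, against 720 and 642 at baseline. Its median was -0.62 ± 0.33, with an adjusted p of 0.0015, the lowest of the members in N87. In OE19 it was -0.51 ± 0.64 with an adjusted p of 0.068. The genome holds close copies of POLR2J, and which of them its sgRNAs match was not examined.

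POLR2D, which forms the stalk of the enzyme with POLR2G, was called in OE19. Its sgRNAs summed to 564 and 524 normalized counts with vehicle, against 808 and 954 at baseline, with no overlap. The median was -0.89 ± 0.53 (adjusted p 0.014), the lowest of the members in OE19. Both vehicle libraries lay below both baseline libraries for 5 of 6 sgRNAs, where 21.9% of all entries did. In N87 its sums were 536 and 561, against 706 and 686, and its median was -0.42 ± 0.38 with an adjusted p of 0.061. Its stalk partner POLR2G had medians of -0.09 in N87 and -0.16 in OE19, neither past the test. POLR2A and POLR2B, the largest subunits, which form the active site, did not pass either. POLR2A had -0.34 in N87 and -0.06 in OE19, and POLR2B had -0.39 and -0.01. POLR2C, the partner of POLR2J, had -0.43 and -0.31.

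The 5 subunits shared with polymerases I and III were also negative in both lines, with medians of -0.26 in N87 and -0.47 in OE19, and 2 of them passed in N87. POLR2L summed to 578 and 449 normalized counts in N87 vehicle cells, against 750 and 741 at baseline, and had a median of -0.72 ± 0.46 (adjusted p 0.0063). POLR2E summed to 385 and 278, against 559 and 479, and had a median of -0.71 ± 0.36 (adjusted p 0.043). Neither set of sums overlapped. In OE19 POLR2E had a median of -0.72 ± 0.53 (adjusted p 0.46) and POLR2L -0.47 ± 0.76 (0.61). POLR2F had -0.24 in N87 and -0.08 in OE19, POLR2H had -0.26 and -0.27, and POLR2K had -0.23 and -0.51.

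TFIIA and TFIIB connect TFIID to the polymerase. GTF2A2, the small TFIIA subunit, was called in both lines, and its sgRNAs differed widely. It summed to 694 and 661 normalized counts in N87 vehicle cells, against 855 and 911 at baseline, and to 728 and 701 in OE19 vehicle cells, against 939 and 991 at baseline. The groups did not overlap in either line. Its median was -0.19 ± 0.63 in N87 (adjusted p 0.016) and -0.55 ± 1.26 in OE19 (0.029). The OE19 call was lost with the replicate number as a block (adjusted p 0.077) and when any 1 of the 4 OE19 libraries was left out (up to 0.14), and the N87 call without baseline replicate 2 or vehicle replicate 1 (up to 0.23). The sgRNA HGLibB_21498 of GTF2A2 held 19.9 and 22.7 normalized counts in OE19 vehicle cells, against 176 and 198 at baseline, and 54.8 and 40.05 in N87 vehicle cells, against 142 and 133. It was the 1 member sgRNA past the single-sgRNA test in N87, with a log2 fold change of -1.53. By contrast HGLibB_21497 of the same gene held 354 and 405 in OE19 vehicle cells, against 347 and 320 at baseline.

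GTF2B, which is TFIIB itself, had a median of -0.46 ± 0.75 in N87 (adjusted p 0.044) and -0.39 ± 0.53 in OE19 (0.85). Its N87 call was lost with the replicate block (adjusted p 0.058), with control-guide factors and with a count minimum of 200. It was also lost when any 1 of the 4 N87 libraries was left out. GTF2A1, the large TFIIA subunit, had -0.09 in N87 and 0.05 in OE19, and GTF2A1L, its paralog of germ cells, had -0.0042 and -0.05. Neither passed the test.

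None of the 4 genes of TFIIE and TFIIF was called in either line. GTF2E2, the smaller TFIIE subunit, had the lowest median of them in N87, -0.56 ± 0.45 (adjusted p 0.26), and 0.13 ± 0.85 in OE19 (0.77). GTF2E1, the larger TFIIE subunit, had 0.07 and -0.02. Of the TFIIF subunits, GTF2F1 had -0.15 in N87 and -0.17 in OE19, and GTF2F2 had -0.01 and 0.18.

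In the core of TFIIH, the complex that opens promoter DNA and also serves in excision repair, GTF2H2 was called in both lines. It encodes the p44 subunit. Its 6 sgRNAs summed to 1159 and 950 normalized counts in N87 vehicle cells, against 1466 and 1462 at baseline, and to 909 and 1078 in OE19 vehicle cells, against 1471 and 1450 at baseline. All vehicle libraries were below all baseline libraries. Its median was -0.64 ± 0.35 in N87 (adjusted p 0.0034) and -0.88 ± 0.55 in OE19 (0.0035). In each line 4 of 6 sgRNAs had both vehicle libraries below both baseline libraries. Of all entries 17.9% in N87 and 21.9% in OE19 did. In both lines GTF2H2 was called under all 12 alternatives other than those with library A or B alone.

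GTF2H2C, a close copy of GTF2H2, was called in both lines as well. It summed to 870 and 770 normalized counts in N87 vehicle cells, against 1134 and 1031 at baseline, and to 746 and 800 in OE19 vehicle cells, against 1128 and 1132 at baseline. Its median was -0.43 ± 0.40 in N87 (adjusted p 0.010) and -0.39 ± 0.76 in OE19 (0.023). GTF2H2D, a further copy, had -0.04 ± 0.61 and 0.01 ± 1.09 and was not called. In OE19 1 of its sgRNAs, HGLibA_21553, had 30 and 5 counts with vehicle, against 91 and 92 at baseline. GTF2H2 lies at chr5:70330843-70363516 on the minus strand and GTF2H2C at chr5:68856018-68891048 on the plus strand of GRCh37. The copies are nearly identical, so how many of them each sgRNA cuts was not determined, and the 3 genes are not separate evidence.

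Of the other TFIIH core genes, GTF2H4 had -0.24 in N87 (adjusted p 0.42) and -0.30 in OE19 (0.084), GTF2H3 had -0.21 and -0.36, and GTF2H1 had -0.23 and 0.15. GTF2H5, the smallest subunit, known mainly for its part in DNA repair, had the highest median of all members in N87, 0.20 ± 0.21, and -0.16 ± 0.33 in OE19. None of these 4 passed the test.

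**Figure D3:**
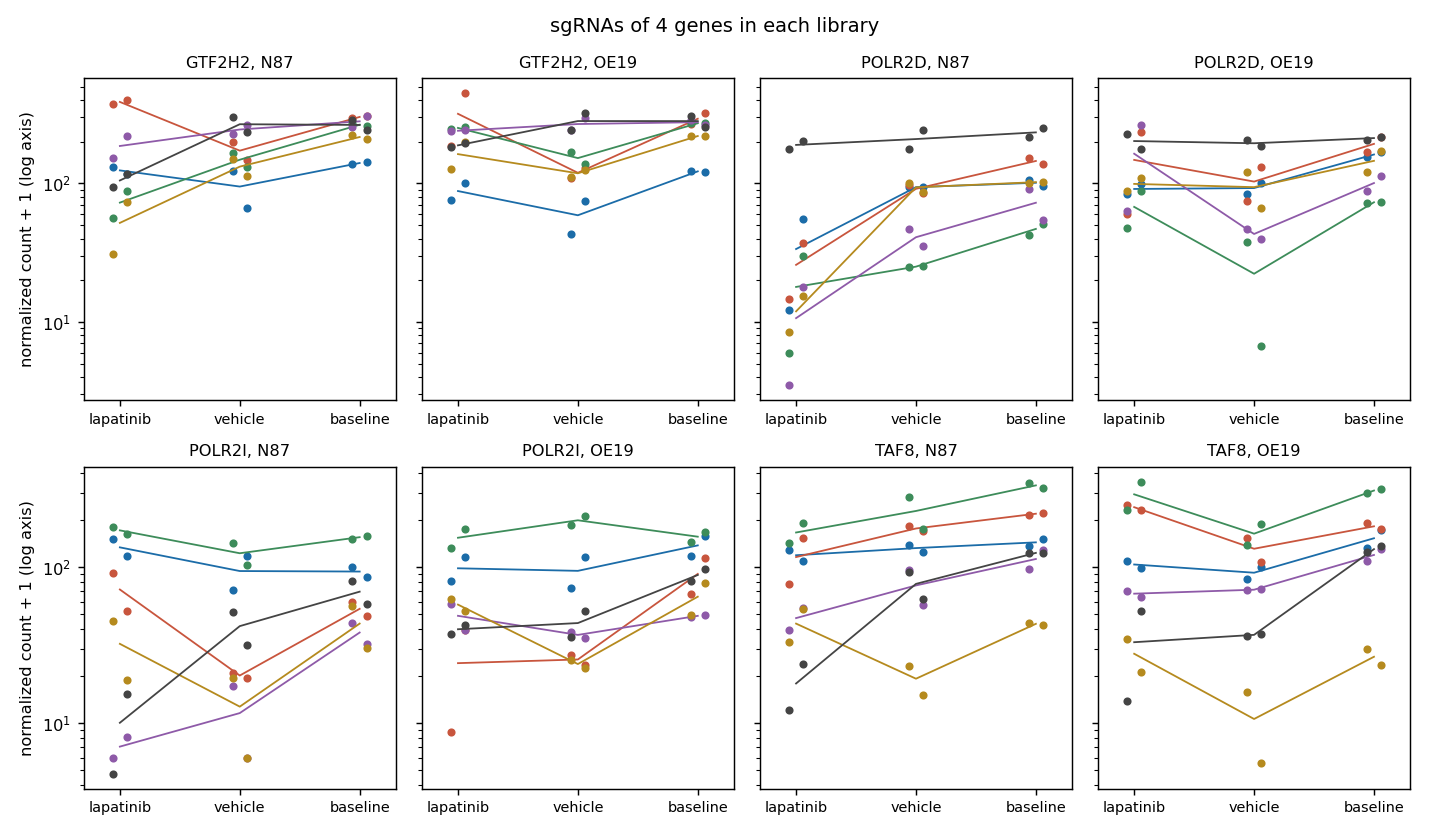
Normalized count plus 1 (log axis) of each of the 6 sgRNAs of GTF2H2, POLR2D, POLR2I and TAF8 in the lapatinib, vehicle and baseline libraries of N87 and OE19, with points for single libraries, lines through the means of the 2 replicates and a colour for each sgRNA. Most lines lie lower at vehicle than at baseline, and in OE19 many lie higher at lapatinib than at vehicle.

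TBP, which bends the promoter and serves all 3 nuclear polymerases, was called in N87. Its sgRNAs summed to 514 and 452 normalized counts with vehicle, against 636 and 567 at baseline, and the median was -0.58 ± 0.74 (adjusted p 0.025). In N87, 4 of its sgRNAs had both vehicle libraries below both baseline libraries and 2 had both above. Of all entries 17.9% had both below and 18.9% both above. In OE19 it summed to 458 and 522 with vehicle, against 741 and 822 at baseline, and the median was -0.70 ± 0.61 with an adjusted p of 0.12.

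Of the 15 TAFs of TFIID, 3 were lower in N87 and 2 in OE19, with medians over the 15 genes of -0.28 and -0.14. TAF8, which links TAF2 and TAF10 to the core of the complex, was called in both. It summed to 813 and 602 normalized counts in N87 vehicle cells, against 962 and 985 at baseline, and to 495 and 507 in OE19 vehicle cells, against 883 and 953 at baseline. The groups were well apart in OE19. Its median was -0.55 ± 0.37 in N87 (adjusted p 0.017) and -0.85 ± 0.50 in OE19 (0.011). On leaving out 1 library the N87 median ranged over -0.98 to -0.25 and was at -0.25 without vehicle replicate 2. The N87 call was lost there (adjusted p 1), without baseline replicate 2 and with at least 200 counts, and the OE19 call without baseline replicate 2 or vehicle replicate 2 (up to 0.096). All 6 of its sgRNAs in OE19 and 5 of 6 in N87 had both vehicle libraries below both baseline libraries. Of all entries 21.9% in OE19 and 17.9% in N87 did. TAF8 lies at chr6:42018251-42055199 on the plus strand of GRCh37.

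TAF13, a histone-fold partner of TAF11, and TAF2, which contacts promoter DNA, were called in N87. TAF13 had -0.56 ± 0.35 in N87 (adjusted p 0.026) and -0.31 ± 0.61 in OE19 (0.16), and TAF2 had -0.37 ± 0.40 (0.049) and -0.51 ± 0.61 (0.14). The TAF2 call was lost with the replicate block (adjusted p 0.071), with at least 200 counts and without N87 baseline replicate 1 or vehicle replicate 2 (up to 0.12), and the TAF13 call without vehicle replicate 1 or 2 (up to 0.12). TAF5, a WD40-repeat scaffold of TFIID, was called in OE19. Its sgRNAs summed to 566 and 531 normalized counts with vehicle, against 807 and 815 at baseline, and its median was -0.75 ± 0.70 (adjusted p 0.017). The call was lost with the replicate block (adjusted p 0.17), with control-guide factors, with at least 200 counts and without OE19 baseline replicate 2, vehicle replicate 1 or vehicle replicate 2 (up to 0.32). In N87 TAF5 had -0.53 ± 0.46 with an adjusted p of 0.067, and of 0.0084 with the block, and TAF1, the largest TAF, had -0.54 ± 0.46 with 0.062. In OE19 TAF1 had -0.42 ± 0.26 (adjusted p 0.43) and TAF3 -0.82 ± 0.96 over 5 tested sgRNAs (0.21). TAF3 was not called in N87. Its N87 vehicle libraries, each set against the baseline mean on normalized counts, gave -0.42 and -0.88.

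The remaining TAFs of TFIID were near 0 or uncertain. TAF4, a central subunit, had -0.11 ± 0.12 in N87 and -0.06 ± 0.32 in OE19, and its gonadal paralog TAF4B had 0.09 and -0.09. TAF9 had -0.0033 and 0.06, and its paralog TAF9B had -0.10 and 0.09. TAF6 had -0.13 and 0.01, TAF7 -0.28 and -0.10, TAF10 -0.38 and 0.02, TAF11 -0.18 and -0.30, and TAF12 -0.13 and -0.14. For all of these genes the adjusted p for a lower value was 0.31 or more.

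TAF1A, TAF1B and TAF1C belong to SL1, the factor that brings polymerase I to ribosomal RNA genes, and are in the set by name alone. TAF1B summed to 526 and 471 normalized counts in N87 vehicle cells, against 769 and 792 at baseline, and had a median of -0.74 ± 0.33 over 5 tested sgRNAs (adjusted p 0.0032). In OE19 it had -0.27 ± 0.59 (adjusted p 0.41). TAF1C had -0.34 in N87 and -0.32 in OE19, and TAF1A had -0.15 and 0.10. TAF15, an RNA-binding protein of the FET family, had 0.15 ± 0.15 in N87 and -0.18 ± 0.19 in OE19. None of these last 3 was called.

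The calls depended on single libraries. In N87 the count of 13 became 5 without vehicle replicate 2. Of the 47 genes, 39 were lower in N87 vehicle replicate 2 than in vehicle replicate 1, each set against the same baseline mean. In OE19 the count of 6 became 2 without baseline replicate 2 and 2 without vehicle replicate 2.

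Between the lines, 4 genes were called in both, GTF2A2, GTF2H2, GTF2H2C and TAF8, which is 30.8% of the 13 in N87 and 66.7% of the 6 in OE19. Of these 4, GTF2H2 kept its call in both lines when any 1 library was left out, and GTF2A2, GTF2H2C and TAF8 did not. Of the other N87 calls, POLR2J and TBP were lost without vehicle replicate 2, POLR2I, POLR2E and POLR2L without that library or baseline replicate 1, and TAF1B without vehicle replicate 1. In OE19, POLR2D was lost without vehicle replicate 2 (adjusted p 0.15). The N87 calls of POLR2I and TBP were also lost with at least 200 counts, and that of POLR2E with control-guide factors. A further 32 of the 47 were called in neither. The medians of 33 members were negative in both lines. Across the 47 genes the medians of the 2 lines had a Pearson r of 0.64 and a Spearman rho of 0.62, and across all 20893 genes tested in both the Pearson r was 0.58. These correlations are over genes, which are not independent replicates, and the lines share the sgRNAs. In the interaction of line and condition over 8 libraries, 0 of 47 members differed in either direction at an adjusted p of 0.05, where 0.191% of all genes were lower and 0.0383% higher in OE19 than in N87. At an unadjusted p of 0.05, 5 members were lower (5.39% of all genes) and 7 higher (5.20%), and the count of 0 was also found when DESeq2 replaced edgeR. Of the 280 member sgRNAs tested, 0 differed (0.00325% of all sgRNAs lower and 0% higher). POLR2D, called in OE19, differed by -0.45 ± 0.29 (OE19 minus N87) and TAF1B, called in N87, by 0.30 ± 0.35, with adjusted p of 1 for both. A gene called in 1 line is therefore not shown to differ between them.

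With lapatinib, no member passed the gene test in either line. In N87 0 of 47 were lower than in vehicle cells (0.0144% of all genes) and 0 higher (0%), and at an unadjusted p of 0.05 there were 0 lower (5.18%) and 2 higher (5.08%). In OE19 0 were lower (0%) and 0 higher (0.0957%), with 2 lower (5.37%) and 7 higher (5.47%) at an unadjusted p of 0.05. With DESeq2 the counts at the threshold were 0 as well in both lines.

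In N87 many single sgRNAs moved in both directions. Of the 274 member sgRNAs tested, 76 were lower and 85 higher past the edgeR test, which is 27.7% and 31.0%, where 29.9% and 31.2% of all sgRNAs were. In one direction or the other 161 (58.8%) passed, where 61.1% of all sgRNAs and 52.3% of the control guides did. Both lapatinib libraries lay below both vehicle libraries for 129 (45.7%) of the 282 sgRNAs, where 42.8% of all entries did, and above for 107 (37.9%), where 41.8% did. These shares are close to those of all sgRNAs. The 6 sgRNAs of a gene disagreed with each other: the SD over the sgRNAs of a gene had a median of 1.40 over the members and 1.29 over all genes, while the control guides had an SD of 1.04. The member median was -0.22 and that of all genes -0.09. Of the members 27 were negative and 20 positive, where 55.5% of all genes were negative.

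TAF4 had the highest gene median with lapatinib of all members in N87. It lies at chr20:60528525-60640937 on the minus strand of GRCh37. HGLibB_49175 held 661 and 536 normalized counts with lapatinib, against 31.7 and 21.7 with vehicle and 27.0 and 35.6 at baseline, a fold of 21.6 over vehicle. HGLibA_56523 held 1018 and 757 with lapatinib, against 50.2 and 60.1 with vehicle and 69.2 and 57.9 at baseline, a fold of 15.8. HGLibB_49176 held 826 and 574, against 93.4 and 72.6 with vehicle and 93.7 and 71.9 at baseline, a fold of 8.35. In these 3 sgRNAs every lapatinib library was far above every vehicle and baseline library.

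The other 3 sgRNAs of TAF4 moved less or the other way in N87. HGLibA_56522 held 789 and 712 with lapatinib, against 415.5 and 295 with vehicle, and HGLibB_49174 held 184 and 178, against 91.9 and 110. HGLibA_56521 held 4.9 and 13.2 with lapatinib, against 28.6 and 61.7 with vehicle, and was lower. Past the single-sgRNA test 5 were higher and 1 lower, where 31.2% of all sgRNAs were higher and 29.9% lower. The gene median was 2.02 ± 2.52, at the upper end of the 20885 genes tested, and the adjusted p of 0.26 missed the threshold. The lapatinib libraries, each set against the mean of the vehicle libraries on normalized counts, gave 2.22 and 1.89. These values share that mean, so they are not independent. Under the alternatives tried the median ranged over 1.02 with library A to 3.02 with library B and the adjusted p over 0.12 to 0.82. Against baseline the N87 lapatinib cells had a TAF4 median of 2.01 ± 2.50 (SD, 6 sgRNAs; adjusted p 0.38).

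In OE19 none of the 6 sgRNAs of TAF4 passed the single-sgRNA test. HGLibB_49175 held 18.1 and 29.5 normalized counts with lapatinib, against 22.1 and 21.6 with vehicle. HGLibA_56523 held 106 and 77.6, against 32.4 and 45.4, and HGLibB_49176 held 119 and 121, against 110 and 91.9. The median was 0.19 ± 0.49 (adjusted p 1). It changed sign, to -0.24, with scaling by total counts, and to -0.03 without lapatinib replicate 2. The interaction of line and treatment, which also includes the difference in dose, had a median of -1.84 ± 2.35 (OE19 minus N87) with an adjusted p of 0.68. Of the sgRNAs of TAF4, 3 were lower and 1 higher in OE19 past the single-sgRNA interaction test. Of all sgRNAs, 20.5% were lower and 20.7% higher. TAF4B had -0.55 ± 1.11 with lapatinib in N87 and 0.09 ± 0.49 in OE19. TAF12, which pairs with TAF4 inside TFIID, had 0.44 ± 2.06 in N87 and 0.81 ± 0.76 in OE19.

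**Figure D4:**
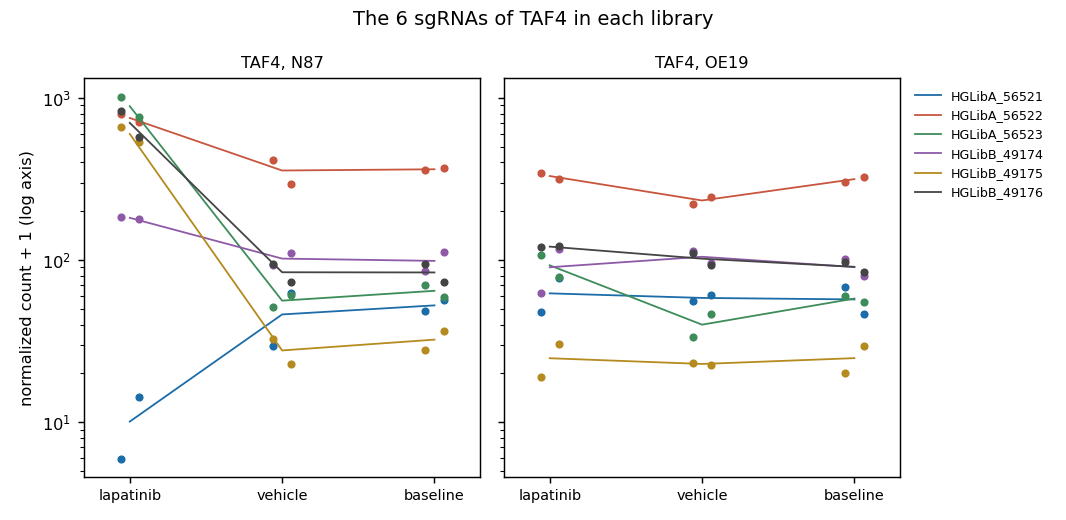
Normalized count plus 1 (log axis) of the 6 sgRNAs of TAF4 in the lapatinib, vehicle and baseline libraries of N87 (left) and OE19 (right), with points for single libraries and lines through the means of the 2 replicates. In N87 HGLibB_49175, HGLibA_56523 and HGLibB_49176 lie 21.6, 15.8 and 8.35 times higher with lapatinib than with vehicle while HGLibA_56521 lies lower, and in OE19 the lines are flatter.

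Other members also had single sgRNAs far from vehicle in N87. HGLibB_38550 of the shared subunit POLR2K had 545 and 408 counts with lapatinib, against 63 and 61 with vehicle, an 11.5-fold difference in normalized counts, and HGLibA_45856 of POLR2B had 910 and 627, against 100 and 139, a 9.64-fold difference. The gene medians were negative all the same, -0.76 ± 2.45 for POLR2K and -0.23 ± 2.13 for POLR2B. In the other direction HGLibA_56910 of TBP had 0 and 1 counts with lapatinib, against 69 and 55 with vehicle. Its ratio was 0.0123 with a 95% exact interval of 0.000308 to 0.0696, which covers counting error only. HGLibB_38528 of POLR2E had 0 and 1 counts, against 30 and 11, a ratio of 0.0371 with an interval of 0.000916 to 0.218.

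A further 3 sgRNAs were among the lowest in N87. HGLibB_49202 of TAF9 had 2 and 5 counts with lapatinib, against 77 and 91 with vehicle, HGLibB_49171 of TAF3 had 2 and 5, against 79 and 71, and HGLibA_21530 of GTF2B had 4 and 3, against 75 and 70. Their folds in normalized counts, with a pseudocount of 1, were 0.0763, 0.0857 and 0.0892. Above 10-fold there were 3 of the 282 member sgRNAs (1.06%), where 0.653% of all entries were, and below 0.1-fold 5 (1.77%), where 0.463% were.

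POLR2E had the lowest gene median with lapatinib in N87. Its sgRNAs summed to 64.3 and 88.9 normalized counts, against 385 and 278 with vehicle and 559 and 479 at baseline, and all 3 conditions were apart, as were lapatinib and vehicle in all 6 sgRNAs. Both lapatinib libraries lay below both vehicle libraries for 42.8% of all entries. Of the 6 sgRNAs of POLR2E, 4 were lower past the single-sgRNA test, where 29.9% of all sgRNAs were. The median was -2.69 ± 1.30, yet the gene's unadjusted p in the rank aggregation was 0.18 and its adjusted p 1. POLR2D was at -1.73 ± 1.07, with sums of 216 and 351 with lapatinib against 536 and 561 with vehicle, TAF1B was at -1.83 ± 1.11, GTF2B at -1.76 ± 1.65 and POLR2A at -1.37 ± 1.45. Each had an adjusted p of 1. At the other end of the members after TAF4 were GTF2H4 at 0.96 ± 1.38 and POLR2L at 0.84 ± 1.54.

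**Figure D5:**
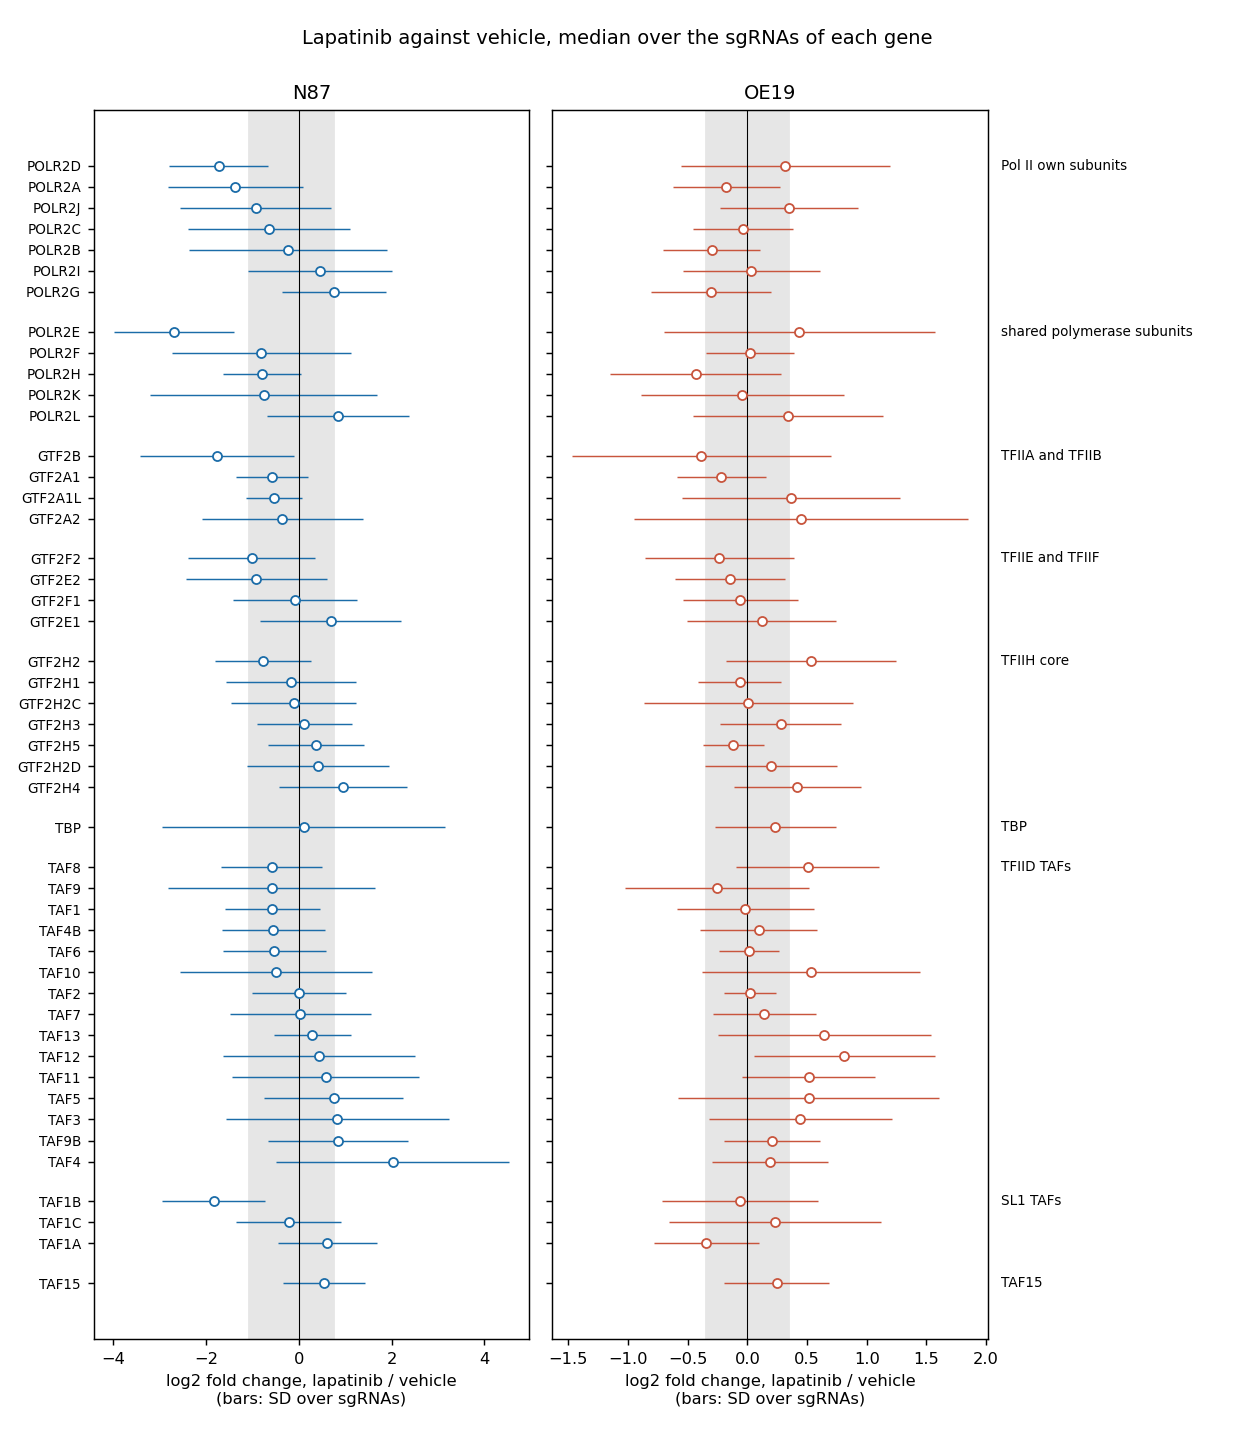
Median log2 fold change of lapatinib over vehicle for each of the 47 genes in N87 and OE19, grouped by role, with bars for the SD over sgRNAs and a grey band from the 10th to the 90th percentile of all genes; the horizontal scales differ. No point is filled because no gene passed an adjusted p of 0.05. TAF4 at 2.02 and POLR2E at -2.69 are the ends in N87, and TAF12 at 0.81 is the upper end in OE19.

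In OE19 the members lay slightly above all genes with lapatinib. Their median was 0.12, against -0.02 for all genes, and 30 of the 47 were positive, where 53.1% of all genes were negative. Above the 90th percentile of all genes, 0.35, lay 13 members, and 2 lay below the 10th percentile, -0.35. Of the 282 sgRNAs, 92 (32.6%) had both lapatinib libraries above both vehicle libraries, where 23.8% of all entries did, and 51 (18.1%) had both below, where 24% did. The control guides had 15% above and 34.8% below. Past the single-sgRNA test 11 of 280 were higher (2.33% of all sgRNAs) and 1 was lower (0.0795%), 12 (4.29%) in all, where 2.41% of all sgRNAs passed. The control guides had a median of -0.14 in this comparison. The sign of the member median was not stable to scaling: with total counts it was -0.33, where the median of all genes was -0.46.

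The TAFs of TFIID were mostly positive in OE19 on this scale: their median was 0.21 and 13 of the 15 were positive. Of all genes 53.1% were negative. With total counts the median of these TAFs was -0.24 and 7 were positive, where the median of all genes was -0.46. On the normalized counts 35 of the 90 sgRNAs of these TAFs had both lapatinib libraries above both vehicle libraries, where 23.8% of all entries did. In OE19 drug-free growth, which shares these vehicle libraries, 42 of the 90 had both below both baseline libraries, where 21.9% of all entries did. TAF12 had the highest gene median of all members, 0.81 ± 0.76, with all 6 sgRNAs above vehicle in both lapatinib libraries, with an unadjusted p of 0.0013 from the rank aggregation and an adjusted p of 0.39. HGLibA_56492 of TAF12 held 375 and 366 normalized counts with lapatinib, against 49.4 and 107 with vehicle and 167 and 199 at baseline, and HGLibA_56493 held 527 and 388, against 138 and 159 with vehicle and 213 and 214 at baseline. Both exceeded baseline as well as vehicle. In N87 the same HGLibA_56492 held 8.7 and 9.6 with lapatinib, against 78.0 and 32.5 with vehicle.

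TAF13 had 0.64 ± 0.89 in OE19 (adjusted p 0.51) and TAF10 0.53 ± 0.91 (0.805), with 2 sgRNAs of TAF10 past the single-sgRNA test. TAF9, TAF10 and TAF12 also serve in SAGA, a histone acetyltransferase complex, and TAF9 had -0.26 ± 0.77. HGLibA_56528 of TAF5 had 70 and 94 counts with lapatinib, against 22 and 30 with vehicle, a fold of 6.29 in normalized counts, and HGLibB_21498 of GTF2A2 had 84 and 97, against 27 and 20, a fold of 8.28. HGLibA_45864 of POLR2E and HGLibB_38523 of POLR2D had folds of 3.88 and 3.80 and did not pass the single-sgRNA test.

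The lowest folds of member sgRNAs in OE19 were smaller in size. HGLibB_49158 of TAF1B, at 0 and 0 counts with lapatinib against 6 and 2 with vehicle, was too low to test. HGLibB_49202 of TAF9 had 11 and 8 counts, against 75 and 55, a fold of 0.358. HGLibB_21495 of GTF2A1L, at a fold of 0.407, was the member sgRNA past the test as lower, with 51 and 74 counts against 520 and 198. HGLibA_21539 of GTF2F1 had a fold of 0.434 and HGLibB_38537 of POLR2H one of 0.446, and neither passed. The lowest gene medians were POLR2H at -0.43 ± 0.72, GTF2B at -0.39 ± 1.08 and TAF1A at -0.34 ± 0.44.

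Set against baseline rather than vehicle, the lapatinib cells had a member median of -0.47 in N87 and -0.20 in OE19, against -0.10 and -0.02 over all genes, and 0 members were called in either direction. For lower values 0.134% of all genes were called in N87 and 0.129% in OE19, and for higher values 0% and 0.124%. At an unadjusted p of 0.05, 9 members were lower in each line (5.23% of all genes in N87 and 5.69% in OE19) and 2 higher (5.13% and 5.35%). Of the single sgRNAs in N87, 120 of 279 were lower (43.0%, against 33.6% of all) and 79 higher (28.3%, against 33.7%), 199 in all (71.3%, against 67.3%). In OE19 0 of 280 were lower (0%) or higher (0.000817%). Both lapatinib libraries lay below both baseline libraries for 153 (54.3%) of the 282 sgRNAs in N87, where 44.6% of all entries did, and for 115 (40.8%) in OE19, where 29% did. They lay above for 101 (35.8%) in N87, where 43.1% did, and for 59 (20.9%) in OE19, where 26.5% did.

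The genes called in drug-free growth are given beside their lapatinib values. The 2 comparisons share the vehicle libraries, so a low vehicle count lowers one value and raises the other. The values against baseline share the baseline libraries with the calls, so a high baseline count lowers both. Over all genes, lapatinib against baseline was negative for 55.3% in N87 and 52.7% in OE19. The 13 genes of N87 had a median of -0.35 with lapatinib against vehicle, with a range of -2.69 to 0.84, and of -1.02 against baseline, where 12 of 13 were negative. The 6 genes of OE19 had a median of 0.48 with lapatinib against vehicle, with a range of 0.01 to 0.54, and of -0.28 against baseline, where all 6 were negative. In OE19 TAF8, for example, summed to 708 and 818 normalized counts with lapatinib, 495 and 507 with vehicle and 883 and 953 at baseline, so that lapatinib lay between the others. In N87 TAF8 summed to 427 and 584 with lapatinib, 813 and 602 with vehicle and 962 and 985 at baseline.

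In the interaction of line and treatment, 0 of 47 members differed in either direction at an adjusted p of 0.05 (0% of all genes lower and 0.0191% higher), with 3 lower (5.14%) and 3 higher (5.19%) at an unadjusted p of 0.05. Of the 280 member sgRNAs tested, 48 were lower in OE19 (20.5% of all sgRNAs) and 69 higher (20.7%), 117 (41.8%) in all, where 41.2% of all sgRNAs differed. Across the 47 genes the lapatinib medians of the 2 lines had a Pearson r of 0.22, and across all genes 0.00075.

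Other genes of transcription were counted in the same fits, on lists made by role but with earlier results of these data known. Of 5 TFIIH genes with other names, the helicase ERCC3 was lower in drug-free growth in both lines, at -0.57 ± 0.44 in N87 and -0.69 ± 0.54 in OE19, and CCNH, the cyclin of its kinase CDK7, was lower in OE19 at -0.73 ± 0.33. Of 18 subunits of polymerases I and III outside polymerase II, 5 were lower in N87 and 5 in OE19. Among them was POLR3A, the largest subunit of polymerase III, at -0.92 ± 0.31 and -1.19 ± 0.35. Over all genes tested in drug-free growth, 2.34% were lower in N87 and 1.53% in OE19. Of 6 assembly factors of polymerase II, GPN2 and GPN3 were lower in N87 and GPN3 in OE19. Of 23 elongation and pausing genes, 2 were lower in N87 (NELFB and CDK9) and 6 in OE19 (NELFB, CDK9, SUPT6H, SSRP1, NELFCD and CDK12). Of 10 relatives of TAFs and TBP, 0 were called in drug-free growth. With lapatinib 1 of the 62 genes on these lists was called, TAF5L in OE19, a SAGA relative of TAF5. It was higher at 1.58 ± 0.76 (adjusted p 0.035), where 0.0957% of all genes were higher in OE19.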

How the data were processed

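The authors trimmed the reads, mapped them to the sgRNA library and deposited raw read counts per sgRNA for 12 libraries. The submitters' notes list FastQC 0.11.5, Bowtie2 2.3.2 and MAGeCK 0.5.6. The sgRNAs are named by library ID, and guide sequences were not used here. The members, role lists and tests were chosen with earlier results of these data known. Counts were tested per sgRNA with edgeR 4.0.16 (glmQLFit and glmQLFTest, TMM factors, R 4.3.3 with limma 3.58.1) in the 4 libraries being compared, keeping sgRNAs whose counts there summed to 40 or more (80 over the 8 libraries of an interaction). One-sided p-values were ranked over all sgRNAs, and robust rank aggregation, limited to ranks below 0.05, gave each gene with 2 or more tested sgRNAs a score and an exact p, after the method of MAGeCK. Adjusted p-values are Benjamini-Hochberg values over all genes (or all sgRNAs) in each comparison, with a threshold of 0.05. The gene test is one-sided in each direction. Normalized counts were scaled by median-of-ratios size factors, and 1 was added to them before folds were taken. TMM assumes that most sgRNAs do not change, and the control guides had medians of 0.09 (N87) and 0.19 (OE19) in drug-free growth, so members would lie lower on their scale.

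Named genes are TAF4, members past a gene test, the lowest and highest of each role list in drug-free growth, and the 5 member sgRNAs of largest and smallest lapatinib fold in each line; the other members are given to account for all 47, and POLR2E, GTF2H4 and further members in the lapatinib paragraphs, as well as HGLibB_21497 and HGLibA_21553, were picked after their values were seen. Coordinates are from GENCODE on GRCh37, which held 46 of the 47 symbols and not GTF2H2D. Alternatives were other scalings, count minimums of 1 and 200, DESeq2 1.42.0, a rank limit of 0.25, pseudocounts of 0.5 and 5, each half-library, the replicate block and leaving out each library. The edgeR and rank steps were tested on simulated data. Tables and figures used Python 3.11.15 with numpy 2.4.6, pandas 2.3.3 and matplotlib 3.10.9. PCR reads are not independent molecules, so intervals cover counting error only.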

Additional observations from a re-analysis of the deposited data

Results flagged for a closer look

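Outlying libraries cannot be judged among 2 replicates. Of the single sgRNAs named, 17 differed between the lines in the effect of lapatinib past the edgeR interaction test, which 41.2% of all sgRNAs and 36.2% of the control guides also did, and 0 of the 47 genes did. Apart from those of TAF4, these sgRNAs had been picked for their fold within a line, so their number cannot be set against those shares. The values are log2 differences, OE19 minus N87, and the doses differed.

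The effect was higher in OE19 for TBP HGLibA_56910 (6.23), TAF12 HGLibA_56492 (4.91), TAF3 HGLibB_49171 (4.89), GTF2A2 HGLibB_21498 (4.16), POLR2D HGLibB_38523 (4.06), POLR2E HGLibA_45864 (3.14), GTF2B HGLibA_21530 (2.84), TAF4 HGLibA_56521 (2.47), TAF9 HGLibB_49202 (2.42) and TAF5 HGLibA_56528 (2.29). It was lower in OE19 for TAF4 HGLibB_49175 (-4.23), HGLibB_49176 (-2.76) and HGLibA_56523 (-2.71), for GTF2F1 HGLibA_21539 (-3.14), POLR2B HGLibA_45856 (-3.08), POLR2K HGLibB_38550 (-1.88) and GTF2A1L HGLibB_21495 (-1.85). TAF4 had sgRNAs on both sides.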

How the results depend on the processing

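Each condition had 2 libraries. The numbers of lower members in drug-free growth moved most with fewer libraries or fewer sgRNAs: in N87, 13 became 2 with library A alone and 4 with library B alone, and leaving out 1 library gave 5 to 13 (5 without vehicle replicate 2). In OE19, 6 became 2 with library A and 0 with library B, and leaving out 1 library gave 2 to 6 (2 without baseline replicate 2 or vehicle replicate 2). GTF2A2 reversed to 0.17 with library B and GTF2H2C to 0.0726 with library A, both in OE19 growth. In N87 growth 11 members were lower with control-guide factors and 9 with at least 200 counts (430 and 466 of all genes). In OE19 growth the numbers were 5 and 7 (285 and 285). With a rank limit of 0.25, 18 members were lower in N87 growth and 7 in OE19 growth, where 836 and 452 of all genes were. This added GTF2E2, POLR2C, TAF1, TAF10 and TAF1C in N87 and TAF2 in OE19. The interaction in growth gave 0 to 1 members on leaving out a library (TAF15 without N87 vehicle replicate 1). The lapatinib counts stayed at 0 under every alternative run, also with library A or B alone.

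The median over the members in N87 growth was -0.38 to -0.23 on leaving out a library. In OE19 growth it was -0.34 to -0.22 on leaving out a library, -0.46 with TMM factors from control guides (where the median of all genes moved to -0.17), -0.19 with at least 200 counts, -0.19 with library A and -0.12 with library B. With lapatinib in N87 it was -0.34 to -0.07 on leaving out a library, -0.74 with total counts (all genes -0.61), -0.50 with control-guide factors (all genes -0.37) and -0.64 with library B, and it reversed to 0.0888 with at least 200 counts and 0.19 with library A. With lapatinib in OE19 it was 0.05 to 0.16 on leaving out a library and 0.24 with control-guide factors (all genes 0.10), and it reversed to -0.33 with total counts (all genes -0.46) and -0.0367 with library B. The causes were not tested. TAF4 in N87 with lapatinib was 1.85 to 2.23 on leaving out a library.

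The replicate numbers share only a number, since the labels do not say that number 1 is 1 infection in all conditions; their deviations correlated at 0.0606 (N87) and 0.0340 (OE19) between lapatinib and vehicle and at 0.238 and 0.0746 between vehicle and baseline. With the replicate block 12 members were lower in N87 (without GTF2B and TAF2, and with TAF5) and 4 in OE19 (without GTF2A2 and TAF5) in drug-free growth, 0 with lapatinib in either line, and TAF4 in N87 had 2.03 with an adjusted p of 0.13.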
